A study of Mus musculus with 24 samples.

Results

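The 40 genes described here encode the machinery of DNA replication and the regulators of the passage from G1 into S phase. They were chosen by gene symbol, from a fixed list, out of the 24015 genes of the count table. The list applies no cut on measured values, but it was set with earlier results of these data known. Counts of members beside those of all genes are therefore a description. All 40 were found, and all 40 were among the 13816 genes that passed the filter on low counts. The symbols fall into 9 roles: origin licensing, the MCM helicase, helicase activation, polymerases and primase, the sliding clamp with its loader and lagging strand enzymes, single strand binding with the fork checkpoint, nucleotide supply, chromatin assembly and maintenance, and G1/S regulators.

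RNA was sequenced from the left ventricle of mice after transverse aortic constriction (TAC), a band around the aorta that loads the ventricle with pressure, or after a sham operation. Hearts were taken at day 2, 4, 7 or 21, which gives 8 groups of 3 libraries and 24 libraries in all. Each day had its own sham group, and all groups differed from each other in operation and day alone as far as the labels tell. The labels give no strain, age, sex or measured load. They do not say if each replicate is an animal of its own, so that the p-values measure the spread between these libraries, which may be technical.

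Before replication, the origin recognition complex with Cdc6 and Cdt1 loads the MCM helicase onto DNA, and kinases then activate it with Cdc45, the GINS complex and Mcm10. Primase and the polymerases copy the strands on the sliding clamp PCNA, while ribonucleotide reductase and thymidine kinase supply the precursors. Cyclin E and the transcription factor E2F1 act at the G1/S boundary, where E2F factors switch on many of these genes. In the adult heart most cardiac muscle cells no longer divide. Fibroblasts, endothelial cells and immune cells are among the cells known to enter the cycle under load.

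Since E2F is the textbook regulator of these genes, their promoters were searched for 4 E2F words, TTTCGCGC, TTTGGCGC, TTTCCCGC and TTTGCCGC, and for CCAAT, on both strands. The RefSeq promoter table (GRCm38.p6, 250 bases before to 50 after a start) held 39 promoters of 34 of the 40 genes. Mcm4, Gins1, Gins2, Prim2, Pole and Ccne2 had no entry. Bases after the start lay in an annotated transcript of the gene for 15 of 18 plus strand and 17 of 21 minus strand promoters. Whether these starts are the ones used in the heart was not tested. An E2F word stood in 14 of the 39 promoters (35.9%) and in 744 of all 32851 promoters (2.26%). TTTCGCGC was found in 8 genes, TTTGGCGC in 6, TTTCCCGC in 5 and TTTGCCGC in 0. CCAAT stood in 21 of the 39 (53.8%), against 37.4% of all promoters, and the median GC content was 58.3% against 52.7%.

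The 4 promoters are shown because they span the range of effects described below. Mcm5 (chr8:75109259-75109558, plus strand) and Mcm6 (chr1:128359656-128359955, minus strand) hold E2F words, and both genes were higher after TAC. Tk1 (chr11:117825965-117826264, minus strand), the gene with the largest effect at day 7, and Dut (chr2:125247265-125247564, plus strand), the gene that was lower, hold none. Capitals mark the E2F words. In Mcm5 a match on each strand overlaps, 153 and 149 bases before the start, and in Mcm6 overlapping matches lie 110 and 106 bases before it and a single one 47 bases before it.
Mcm5: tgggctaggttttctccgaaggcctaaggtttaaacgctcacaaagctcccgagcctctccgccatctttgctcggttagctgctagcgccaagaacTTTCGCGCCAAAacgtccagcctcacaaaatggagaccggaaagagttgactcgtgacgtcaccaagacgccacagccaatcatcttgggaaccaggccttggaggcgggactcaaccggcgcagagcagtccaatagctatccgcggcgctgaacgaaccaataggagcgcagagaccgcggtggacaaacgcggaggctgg
Mcm6: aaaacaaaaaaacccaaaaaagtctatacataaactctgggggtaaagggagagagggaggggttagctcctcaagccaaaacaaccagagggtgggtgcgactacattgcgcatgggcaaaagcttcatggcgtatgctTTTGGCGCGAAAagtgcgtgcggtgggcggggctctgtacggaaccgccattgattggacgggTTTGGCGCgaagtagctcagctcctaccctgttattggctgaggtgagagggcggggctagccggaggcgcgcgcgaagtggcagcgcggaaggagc
Tk1: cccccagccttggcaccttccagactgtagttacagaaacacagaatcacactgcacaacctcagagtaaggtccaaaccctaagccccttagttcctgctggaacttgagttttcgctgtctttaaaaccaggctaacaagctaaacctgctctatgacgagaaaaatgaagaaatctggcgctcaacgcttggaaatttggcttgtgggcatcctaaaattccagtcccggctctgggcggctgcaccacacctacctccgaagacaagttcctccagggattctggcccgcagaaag
Dut: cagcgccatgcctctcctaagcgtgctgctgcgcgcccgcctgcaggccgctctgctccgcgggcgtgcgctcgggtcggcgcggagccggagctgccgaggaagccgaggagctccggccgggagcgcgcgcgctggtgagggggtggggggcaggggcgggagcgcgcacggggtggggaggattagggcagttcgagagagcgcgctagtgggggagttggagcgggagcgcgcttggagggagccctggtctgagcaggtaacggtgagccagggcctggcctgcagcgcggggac
Of the 28 genes higher at day 7, 23 had a promoter in the table and 10 of these an E2F word, against 4 of the 11 other genes with a promoter. A match describes letters in this window and is not a binding site, and its absence says nothing of the factor.

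Across the series the libraries held 10.69 M to 17.56 M counted reads (M, 1000000), and a member had between 0 reads in 3 libraries of Orc1 and 1170 reads in 1 library of Pcna. Abundance is given as counts per 1000000 reads (CPM), with library sizes adjusted by the trimmed mean of M-values (TMM). Myl7, an atrial gene, exceeded 30 CPM in 4 libraries: 38.5 and 95.1 CPM in sham replicates 2 and 3 of day 2, 60.6 in TAC replicate 1 of day 7 and 70.2 in sham replicate 2 of day 21. Without these 4 libraries, a comparison chosen after seeing the data, 0, 19, 23 and 0 members were higher at an adjusted p under 0.05 at days 2, 4, 7 and 21, and day 2 then rested on a single sham library.

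More of the 40 genes were higher after TAC at day 7 than at any other day. At an adjusted p under 0.05 in edgeR's quasi-likelihood test, 10 were higher at day 2 (3.73% of all tested genes were), 21 at day 4 (14.4%), 28 at day 7 (13.1%) and 0 at day 21 (0.622%). The median log2 fold change of the 40 genes was 0.65, 0.86, 1.14 and 0.23 at days 2, 4, 7 and 21, while that of all tested genes lay between -0.01 and 0.01. Dut was the one gene that was lower, at days 4 and 7, where 10.1% and 10.0% of all genes were lower. No member was lower at day 2 or day 21, when 0.854% and 0.470% of all genes were. These are bulk samples, in which more cycling cells and more RNA per cell cannot be told apart.

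The TAC libraries lay above all sham libraries of their day for 16 of the 40 genes at day 2, 24 at day 4, 33 at day 7 and 11 at day 21. Among all tested genes this held for 11.2%, 21.5%, 20.5% and 11.9%. The TAC libraries lay below all sham libraries for 1 member, Dut, at days 2, 4 and 7, and for 2, Gins1 and Dut, at day 21. For how many of all genes they lay below was not counted. Averaged over the 4 days, 33 genes were higher (24.4% of all genes), with a median log2 fold change of 0.67. The 10 genes higher at day 2 were all higher at day 7 too, which makes 100% of the first list and 35.7% of the second. Of the 21 genes higher at day 4, 18 were also higher at day 7 (85.7% and 64.3%), and Orc6, Pole2 and Fen1 were higher at day 4 alone in this test. Mcm3, Mcm5, Mcm10, Lig1, Clspn, Rrm2, Tk1, Uhrf1 and E2f1 were higher at days 2, 4 and 7. Orc1, Gins1, Pold1, Rfc3, Rfc4, Rfc5, Rpa2, Tyms and Dut were higher at no single day.

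How firmly these calls stood differed by day. All 10 calls of day 2 were lost when TAC replicate 3 of that day was left out, with adjusted p from 0.0947 for Uhrf1 to 0.432 for Mcm3, and also without sham replicate 2. Without sham replicate 1 or sham replicate 3, Uhrf1 alone was called, without TAC replicate 1 the count was 23, and without TAC replicate 2 it was 6, with Cdc45, Clspn, Lig1 and Mcm3 lost. At day 4, leaving out TAC replicate 3 removed 14 of the 22 calls and left 8 genes higher: Clspn, Rrm1, Rrm2, Tk1, Chaf1a, Chaf1b, Uhrf1 and E2f1. Those 8 were called without any single library of the 24. At day 7, 20 of the 29 calls held without any single library, and the other 9 (Mcm2, Mcm4, Cdc45, Pola2, Pole, Pcna, Dut, Ccne1 and Ccne2) were lost without TAC replicate 3. Without sham replicate 1 of day 4, Mcm10, Mcm6, Pcna, Pole2 and Prim1 lost the call of that day. Without sham replicate 2 of day 4, Cdt1, Dut, Fen1, Orc6, Pole and Pole2 lost the call of that day. Without sham replicate 3 of day 4, Cdt1, Fen1, Mcm10, Mcm3, Mcm6, Orc6 and Pcna lost the call of that day. Leaving out TAC replicate 1 of that day removed the call of Orc6. Leaving out TAC replicate 2 of that day removed the call of Cdt1. Without sham replicate 1 of day 7, Ccne1, Cdc45, Dut, Mcm2 and Pole lost the call of that day. Without sham replicate 2 of day 7, Cdc45, Dut, Mcm2 and Pola2 lost the call of that day. Without sham replicate 3 of day 7, Ccne1, Cdc45, Dut, Mcm2, Mcm4, Pcna, Pola2 and Pole lost the call of that day. Leaving out TAC replicate 1 of that day removed the call of Ccne1, Cdc45, Dut, Mcm2 and Pola2. Leaving out TAC replicate 2 of that day removed the call of Cdc45 and Pola2. Mcm3 and Clspn at day 2, Orc6 and Fen1 at day 4 and Cdc45 at day 7 were also lost without some libraries of other days, at adjusted p of at most 0.0589.

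**Figure D1:**
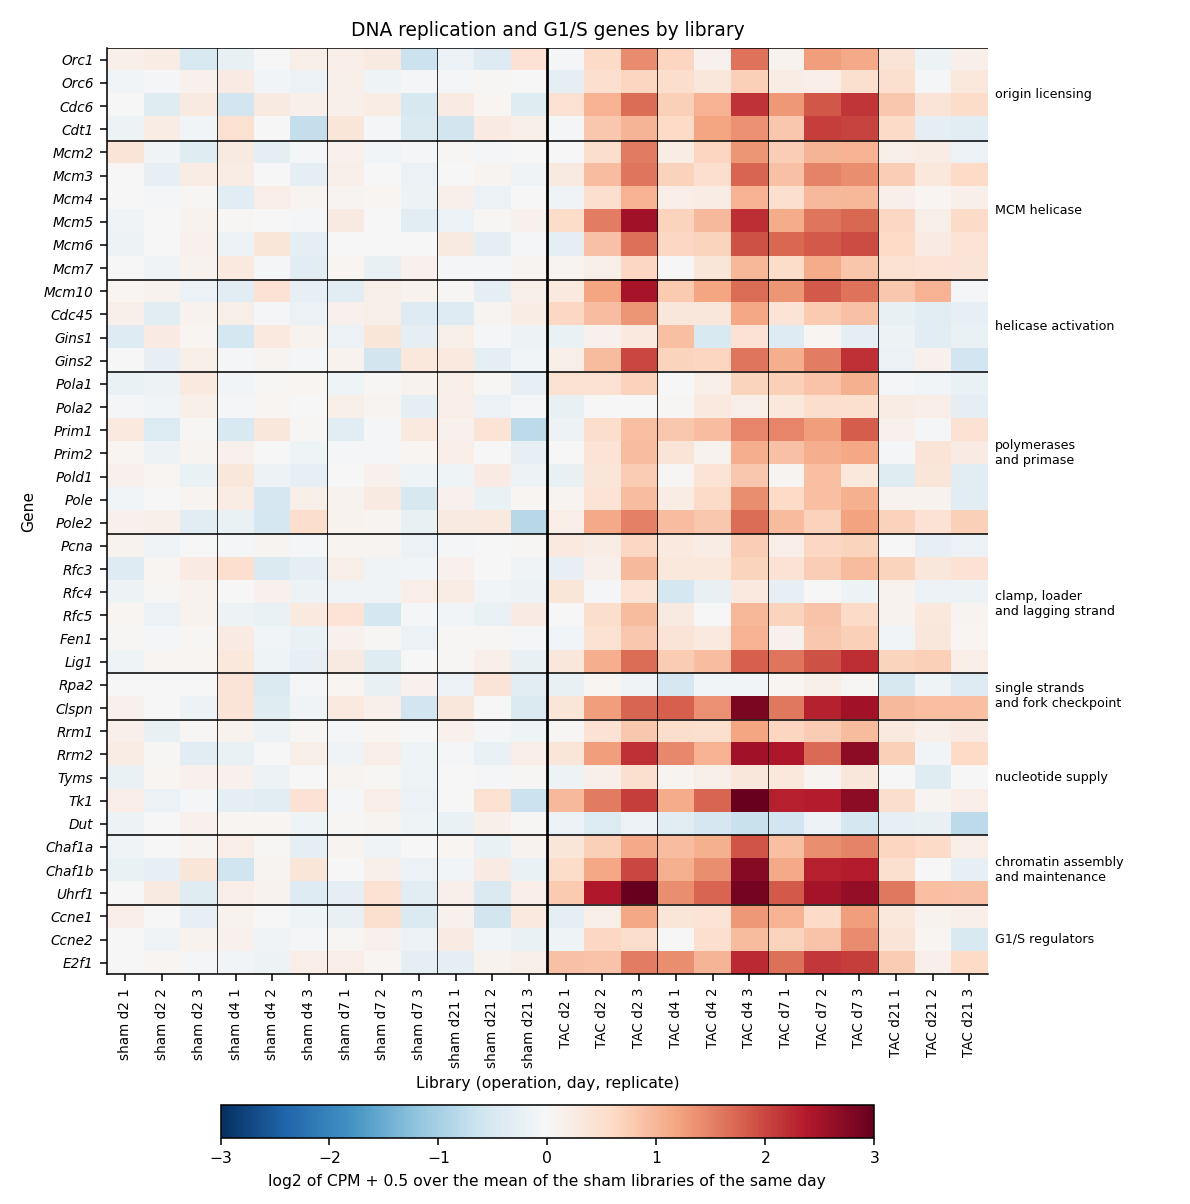
Log2 of CPM + 0.5 in each of the 24 libraries (columns) over the mean of the sham libraries of the same day, for the 40 genes (rows) grouped by role. Red fills most rows of TAC at days 4 and 7, the third TAC library is the darkest at days 2 and 4, and Dut, Rpa2, Rfc4, Gins1 and Tyms stay pale or blue.

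Among the 4 genes of origin licensing, Cdc6 and Cdt1, the loaders of the MCM helicase, were higher at days 4 and 7, and Orc6, a subunit of the origin recognition complex, at day 4. TAC values are listed as replicates 1, 2 and 3. Orc6 was at 3.53 to 5.68 CPM in the 12 sham libraries, with a median of 4.03. After TAC it was at 3.46, 6.24 and 6.96 CPM at day 2 and at 6.17, 5.29 and 7.06 CPM at day 4. Day 7 gave 5.92, 5.85 and 7.15 CPM and day 21 5.61, 3.75 and 4.94 CPM. TAC replicate 1 of day 2 lay below the sham libraries of its day, and the groups were apart at days 4 and 7. The log2 fold change was 0.60 ± 0.21 at day 4 (adjusted p = 0.0462) and 0.33 ± 0.21 at day 7 (adjusted p = 0.265), both ± SE from edgeR as in all fold changes here.

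Cdt1 was at 0.723 to 2.29 CPM in sham hearts (median 1.36). TAC hearts had 1.21, 2.54 and 3.03 CPM at day 2, and 2.58, 4.10 and 4.71 CPM at day 4. Later they had 2.56, 6.81 and 6.58 CPM at day 7, and 2.49, 1.13 and 1.10 CPM at day 21. Replicates 2 and 3 of day 7 were the highest of all 24 libraries, and the groups overlapped at days 2 and 21. Its log2 fold change was 1.33 ± 0.45 at day 4 (adjusted p = 0.0362) and 2.07 ± 0.46 at day 7 (adjusted p = 0.00409). Cdc6 reached 2.63 ± 0.58 at day 7 (adjusted p = 0.00403) from a sham range of 0.0879 to 0.645 CPM. Orc1, the ATPase subunit of the complex, had 0 to 24 reads in a library. At day 2 it was at 0.263, 0.303 and 0 CPM in sham and 0.161, 0.520 and 1.35 CPM in TAC. That log2 fold change of 1.81 ± 0.92 did not pass (adjusted p = 0.281) and was -0.12 in the authors' RPKM at a pseudocount of 0.1. At day 4 it was at 0, 0.0812 and 0.161 CPM in sham and 0.407, 0.139 and 1.28 CPM in TAC, and it did not pass (adjusted p = 0.0783). The day 4 calls of Orc6, Cdc6 and Cdt1 were lost without TAC replicate 3, while those of Cdc6 and Cdt1 at day 7 held without any single library.

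All 6 subunits of the MCM helicase were higher at day 7, by log2 fold changes between 0.86 for Mcm4 and 1.90 for Mcm6. Mcm3 and Mcm5 were also higher at day 2, and Mcm3, Mcm5 and Mcm6 at day 4. Mcm4, the most abundant subunit in CPM, was at 11.4 to 16.7 CPM in sham hearts (median 13.5). Values after TAC were 12.4, 19.2 and 28.3 CPM at day 2 and 16.7, 17.1 and 30.3 CPM at day 4. For day 7 they were 21.2, 29.2 and 29.8 CPM and for day 21 14.5, 13.4 and 14.4 CPM. The TAC libraries of day 7 lay above every sham library, with replicate 1 the lowest. On the log2 scale the fold change was 0.86 ± 0.24 at day 7 (adjusted p = 0.0147) and 0.57 ± 0.24 at day 4 (adjusted p = 0.0836).

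Mcm6 was at 7.87 to 12.8 CPM in the sham libraries, with a median of 8.52. In the TAC groups Mcm6 stood at 7.56, 17.7 and 30.6 CPM at day 2 and 15.4, 15.9 and 37.7 CPM at day 4. It stood at 28.0, 30.6 and 33.5 CPM at day 7 and at 14.8, 11.6 and 13.1 CPM at day 21. The 3 TAC libraries of day 7 lay close together and well above the sham level, whereas at day 2 replicate 1 was below every sham library of that day. In edgeR the log2 fold change was 1.24 ± 0.35 at day 4 (adjusted p = 0.0149), 1.90 ± 0.36 at day 7 (adjusted p = 0.00132) and 0.44 ± 0.36 at day 21 (adjusted p = 0.564). Mcm5, from 1.98 to 4.82 CPM in sham hearts, had the largest effect of the subunits at day 2, 1.98 ± 0.42. Mcm2, Mcm3 and Mcm7 had 0.97 ± 0.30, 1.33 ± 0.31 and 0.88 ± 0.22 at day 7. Without TAC replicate 3 of the day, the calls of Mcm3 and Mcm5 at day 2, of Mcm3, Mcm5 and Mcm6 at day 4, and of Mcm2 and Mcm4 at day 7 were lost.

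Of the helicase activators, Mcm10 and Cdc45 were higher at day 2, Mcm10 at day 4, and Mcm10, Cdc45 and Gins2 at day 7, and Gins1 was called at no day. Cdc45, a part of the active helicase, was at 1.21 to 3.03 CPM in sham hearts (median 2.14). At day 2 the TAC libraries held 2.73, 3.53 and 4.77 CPM of Cdc45 and at day 4 3.12, 3.06 and 5.83 CPM. They held 3.60, 4.89 and 5.19 CPM at day 7 and 1.96, 1.74 and 1.92 CPM at day 21. The groups were apart at days 2, 4 and 7 and overlapped at day 21, where the 3 TAC libraries were close to each other. For this gene the log2 fold change was 1.20 ± 0.29 at day 2 (adjusted p = 0.0247), 0.79 ± 0.29 at day 4 (adjusted p = 0.0507) and 0.80 ± 0.29 at day 7 (adjusted p = 0.0475).

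Gins1, a subunit of the GINS complex that joins the helicase, was at 0.967 to 3.29 CPM in the sham libraries. After TAC it was at 1.85, 2.43 and 2.81 CPM at day 2 and at 3.46, 1.04 and 2.35 CPM at day 4. Day 7 gave 1.77, 2.56 and 1.90 CPM and day 21 1.51, 1.31 and 1.47 CPM. These overlapped with sham at days 2, 4 and 7, and at day 21 all 3 TAC libraries lay below all 3 sham libraries. Its log2 fold change was 0.49 ± 0.36 at day 4 and -0.25 ± 0.35 at day 7, and neither passed (adjusted p = 0.324 and 0.635). Gins2, another subunit of the same complex, was at 0.173 to 0.947 CPM in sham hearts and had 2.44 ± 0.58 at day 7 (adjusted p = 0.00632). Mcm10, which helps to switch the helicase on, had 2.66 ± 0.62, 1.72 ± 0.55 and 2.22 ± 0.57 at days 2, 4 and 7. The day 2 calls of Mcm10 and Cdc45, the day 4 call of Mcm10 and the day 7 call of Cdc45 were lost without TAC replicate 3 of the day.

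**Figure D2:**
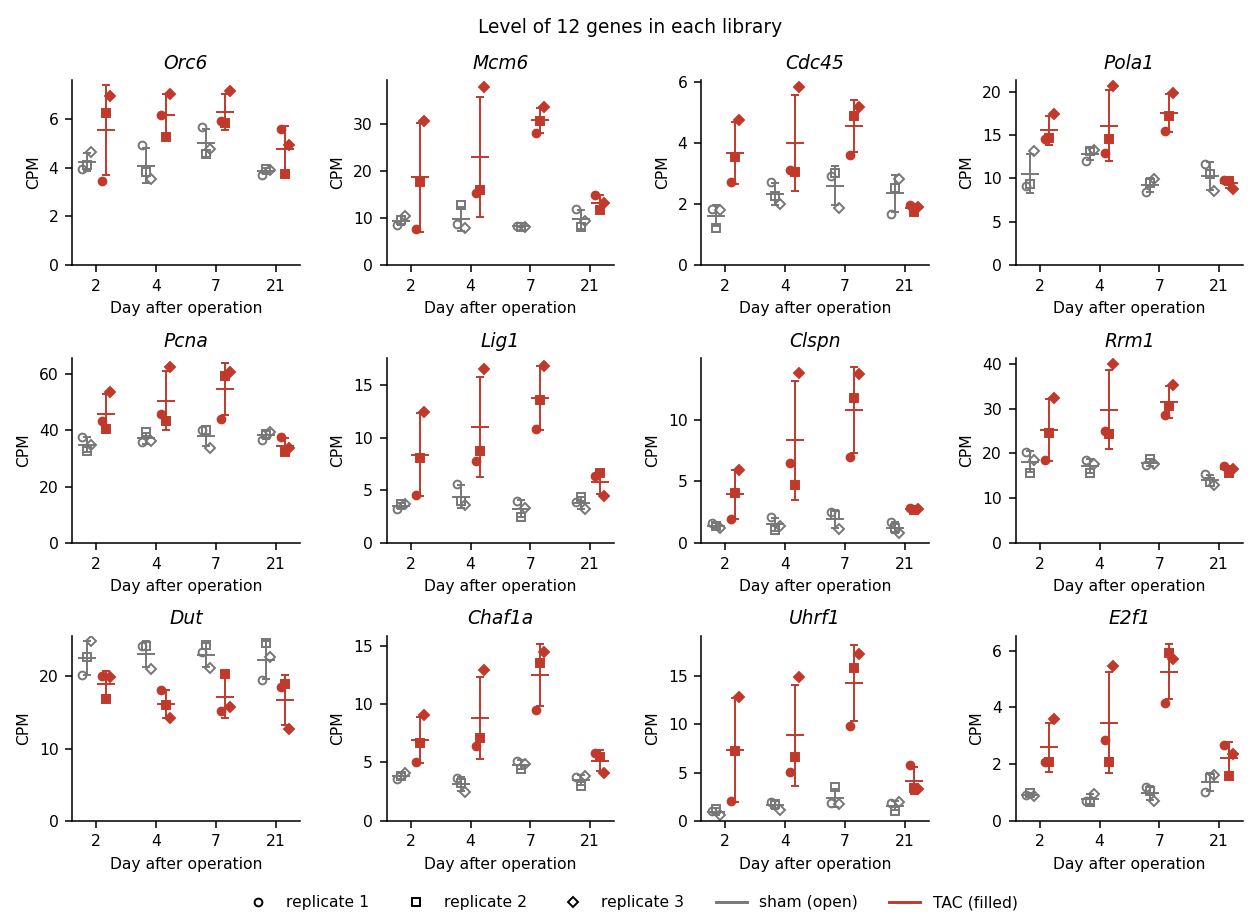
CPM of 12 of the genes in each library by day after the operation, sham in grey and TAC in red, with marker shapes for the replicates, horizontal bars for the mean and whiskers for the SD of 3 libraries. TAC lies above sham at day 7 in 11 of the panels and below it in that of Dut. In the same 11 panels the third TAC library is the highest at days 2 and 4.

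Of the polymerase and primase genes, Prim1, Pole and Pole2 were higher at day 4, and Pola1, Pola2, Prim1, Prim2 and Pole at day 7. Pola1, the catalytic subunit of polymerase alpha, which starts each new strand, was at 8.37 to 13.2 CPM in sham hearts (median 10.2). TAC hearts had 14.6, 14.6 and 17.5 CPM at day 2, and 12.9, 14.5 and 20.7 CPM at day 4. Later they had 15.5, 17.2 and 19.9 CPM at day 7, and 9.80, 9.68 and 8.77 CPM at day 21. The TAC libraries were above all sham libraries of the day at days 2 and 7 and overlapped with them at days 4 and 21. The log2 fold change was 0.56 ± 0.17 at day 2 (adjusted p = 0.0551) and 0.92 ± 0.17 at day 7 (adjusted p = 0.00108).

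Pole, the catalytic subunit of the leading strand polymerase epsilon, was at 4.79 to 12.4 CPM in the sham libraries (median 7.59). Values after TAC were 7.32, 9.31 and 13.6 CPM at day 2 and 8.20, 10.7 and 19.2 CPM at day 4. For day 7 they were 15.5, 19.4 and 21.7 CPM and for day 21 8.11, 8.20 and 5.89 CPM. All TAC libraries of day 7 exceeded the sham libraries, and those of days 2, 4 and 21 overlapped with them. Its log2 fold change was 0.87 ± 0.28 at day 4 (adjusted p = 0.0296) and 0.89 ± 0.27 at day 7 (adjusted p = 0.0247), and both calls were lost without TAC replicate 3 of the day. Both primase subunits stood higher at day 7, Prim1 by 1.82 ± 0.38 and Prim2 by 1.15 ± 0.26. Pole2, the accessory subunit of epsilon, had 1.76 ± 0.54 at day 4 and 1.39 ± 0.53 at day 7, the latter not past the test (adjusted p = 0.062). Pold1, the catalytic subunit of polymerase delta, which copies the lagging strand, had 0.50 ± 0.27 at day 7 (adjusted p = 0.184) and Pola2 0.46 ± 0.15 (adjusted p = 0.0348).

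Among the 6 genes of the clamp, its loader and the lagging strand, Lig1 was higher at days 2, 4 and 7, Pcna at days 4 and 7 and Fen1 at day 4, and none of the loader subunits was at a single day. Pcna, the sliding clamp that tethers the polymerases, was at 32.5 to 40.3 CPM in sham hearts (median 37.1). In the TAC groups Pcna stood at 43.2, 40.6 and 53.8 CPM at day 2 and 45.8, 43.3 and 62.6 CPM at day 4. It stood at 44.0, 59.2 and 60.9 CPM at day 7 and at 37.8, 32.2 and 33.7 CPM at day 21. The TAC libraries lay above the sham libraries of the day at days 2, 4 and 7 and overlapped with them at day 21. On the log2 scale the fold change was 0.39 ± 0.14 at day 2 (adjusted p = 0.108), 0.45 ± 0.14 at day 4 (adjusted p = 0.0223) and 0.52 ± 0.14 at day 7 (adjusted p = 0.0115). The annotation names pseudogenes of Pcna, and the sources used here do not say how the authors' counting split reads among them.

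Lig1, the ligase that joins Okazaki fragments, was at 2.42 to 5.63 CPM in the sham libraries (median 3.71). At day 2 the TAC libraries held 4.58, 8.09 and 12.5 CPM of Lig1 and at day 4 7.79, 8.76 and 16.5 CPM. They held 10.8, 13.6 and 16.8 CPM at day 7 and 6.33, 6.63 and 4.49 CPM at day 21. TAC exceeded sham in every library at all 4 days. In edgeR the log2 fold change was 1.25 ± 0.32, 1.33 ± 0.31 and 2.08 ± 0.33 at days 2, 4 and 7 (adjusted p = 0.0275, 0.00502 and 0.000301) and 0.60 ± 0.33 at day 21 (adjusted p = 0.357). Fen1, the nuclease that trims the fragments, had 0.67 ± 0.24 at day 4 (adjusted p = 0.0447) and 0.62 ± 0.24 at day 7 (adjusted p = 0.0625). Without TAC replicate 3 of the day, the calls of Lig1 at days 2 and 4, of Fen1 at day 4 and of Pcna at days 4 and 7 were lost, and that of Lig1 at day 7 was not.

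Rfc3, Rfc4 and Rfc5 are small subunits of the clamp loader. Rfc4 was at 4.97 to 7.19 CPM in sham hearts. After TAC it was at 8.04, 5.90 and 8.25 CPM at day 2 and at 4.27, 5.36 and 7.91 CPM at day 4. Day 7 gave 5.19, 6.25 and 5.51 CPM and day 21 6.06, 4.88 and 5.01 CPM. These values overlapped with sham at every day, and the log2 fold change was 0.28 ± 0.19, -0.11 ± 0.20 and -0.14 ± 0.20 at days 2, 4 and 7 (adjusted p = 0.454, 0.706 and 0.639). Rfc3 and Rfc5 had 0.84 ± 0.33 and 0.80 ± 0.31 at day 7, with adjusted p of 0.0659 and 0.0662. Averaged over the days both passed, at 0.61 ± 0.16 and 0.56 ± 0.16.

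Of the genes of single strand binding and the fork checkpoint, Clspn was higher at days 2, 4 and 7 and Rpa2 at none. Rpa2, the middle subunit of replication protein A, was at 4.47 to 10.2 CPM in the sham libraries. TAC hearts had 5.55, 6.76 and 6.06 CPM at day 2, and 4.27, 5.84 and 5.83 CPM at day 4. Later they had 6.90, 7.45 and 6.77 CPM at day 7, and 5.35, 6.98 and 5.82 CPM at day 21. Sham and TAC overlapped at all 4 days, and the log2 fold change was -0.22 ± 0.21 at day 4 and 0.10 ± 0.21 at day 7 (adjusted p = 0.463 and 0.753). Clspn, the checkpoint mediator claspin, which travels with the fork, was at 0.765 to 2.53 CPM in sham hearts (median 1.38). Values after TAC were 1.93, 4.05 and 5.89 CPM at day 2 and 6.51, 4.66 and 13.8 CPM at day 4. For day 7 they were 6.96, 11.8 and 13.7 CPM and for day 21 2.85, 2.70 and 2.73 CPM. Every TAC library lay above the sham libraries of its day at all 4 days. For this gene the log2 fold change was 1.52 ± 0.43, 2.47 ± 0.43 and 2.44 ± 0.42 at days 2, 4 and 7 (adjusted p = 0.0477, 0.000676 and 0.000627), and 1.17 ± 0.47 at day 21 (adjusted p = 0.204). The calls of days 4 and 7 held without any single library, and that of day 2 was lost without TAC replicate 2 or 3 or any one sham library of that day.

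Nucleotide supply held the largest effect of all 40 genes at days 4 and 7, that of Tk1, and the one gene that was lower, Dut. Tk1, the thymidine kinase of the salvage route, was at 0.325 to 1.41 CPM in sham hearts. After TAC it was at 1.69, 2.77 and 4.21 CPM at day 2, 1.69, 2.92 and 8.13 CPM at day 4 and 5.80, 5.93 and 7.66 CPM at day 7. Its log2 fold change was 2.24 ± 0.52, 3.02 ± 0.55 and 3.07 ± 0.51 at these days (adjusted p = 0.0194, 0.000883 and 0.000552). Rrm1 and Rrm2 encode the large and small subunits of ribonucleotide reductase, which makes deoxyribonucleotides. Rrm1 was at 12.8 to 20.3 CPM in the sham libraries (median 17.5). In the TAC groups Rrm1 stood at 18.5, 24.7 and 32.3 CPM at day 2 and 25.0, 24.3 and 39.9 CPM at day 4. It stood at 28.5, 30.7 and 35.3 CPM at day 7 and at 17.2, 15.7 and 16.6 CPM at day 21. TAC replicate 1 of day 2 lay among the sham libraries, and the groups were apart at days 4, 7 and 21. The log2 fold change was 0.79 ± 0.18 at day 4 (adjusted p = 0.00393) and 0.81 ± 0.18 at day 7 (adjusted p = 0.00396). Rrm2, at 1.51 to 3.52 CPM in sham hearts, had 1.69 ± 0.43, 2.02 ± 0.43 and 2.53 ± 0.43. The calls of Rrm1, Rrm2 and Tk1 at days 4 and 7 held without any single library, and those of Rrm2 and Tk1 at day 2 were lost without TAC replicate 3 or any one sham library of the day.

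Dut encodes the enzyme that breaks down dUTP and keeps uracil out of DNA. It was at 19.4 to 24.9 CPM in sham hearts (median 23.1). At day 2 the TAC libraries held 20.0, 16.8 and 19.9 CPM of Dut and at day 4 18.2, 16.1 and 14.3 CPM. They held 15.2, 20.3 and 15.8 CPM at day 7 and 18.5, 18.9 and 12.7 CPM at day 21. All TAC libraries lay below all sham libraries of their day at each of the 4 days. Its log2 fold change was -0.26 ± 0.14, -0.52 ± 0.15, -0.43 ± 0.15 and -0.41 ± 0.15 at days 2, 4, 7 and 21 (adjusted p = 0.332, 0.0136, 0.0374 and 0.153), and averaged over the days it was -0.40 ± 0.07 (adjusted p = 0.000161). The call of day 4 was lost without TAC replicate 3 or sham replicate 2 of that day, and the call of day 7 without any one of the 3 sham libraries or of TAC replicates 1 and 3.

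Tyms, thymidylate synthase, makes the thymidine precursor from uridylate and was at 15.7 to 21.5 CPM in the sham libraries. After TAC it was at 16.2, 20.2 and 25.5 CPM at day 2 and at 20.8, 22.3 and 24.9 CPM at day 4. Day 7 gave 24.2, 20.3 and 24.3 CPM and day 21 17.6, 13.6 and 17.5 CPM. Sham and TAC overlapped at all 4 days. On the log2 scale the fold change was 0.20 ± 0.14 at day 4 and 0.26 ± 0.14 at day 7 (adjusted p = 0.295 and 0.186). The annotation names a pseudogene of Tyms, so that its count may include or miss reads of that copy.

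The 3 genes of chromatin assembly and maintenance were all higher at days 4 and 7. Chaf1a and Chaf1b encode subunits of chromatin assembly factor 1, which places histones behind the fork. Chaf1a was at 2.49 to 5.13 CPM in sham hearts (median 3.77). TAC hearts had 5.07, 6.65 and 9.04 CPM at day 2, and 6.44, 7.09 and 12.9 CPM at day 4. Later they had 9.46, 13.5 and 14.5 CPM at day 7, and 5.79, 5.50 and 4.13 CPM at day 21. TAC lay above sham in every library at all 4 days. In edgeR the log2 fold change was 0.86 ± 0.25 at day 2 (adjusted p = 0.0539), 1.50 ± 0.26 at day 4 (adjusted p = 0.000673), 1.37 ± 0.25 at day 7 (adjusted p = 0.000933) and 0.53 ± 0.27 at day 21 (adjusted p = 0.309). Chaf1b had 2.68 ± 0.60 and 2.50 ± 0.54 at days 4 and 7, from 0.176 to 1.13 CPM in sham hearts.

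Uhrf1 encodes the protein that brings the maintenance methyltransferase to newly copied DNA. It was at 0.645 to 3.46 CPM in the sham libraries, with a median of 1.78. Values after TAC were 2.01, 7.23 and 12.8 CPM at day 2 and 5.08, 6.61 and 14.9 CPM at day 4. For day 7 they were 9.83, 15.8 and 17.3 CPM and for day 21 5.79, 3.40 and 3.31 CPM. At each day the 3 TAC libraries lay above the 3 sham libraries, with a spread from 2.01 to 12.8 CPM at day 2. For this gene the log2 fold change was 2.92 ± 0.54, 2.46 ± 0.52 and 2.59 ± 0.50 at days 2, 4 and 7 (adjusted p = 0.00822, 0.00254 and 0.00142), and 1.36 ± 0.55 at day 21 (adjusted p = 0.199), the largest value of the 40 genes at days 2 and 21. Calls of Uhrf1, Chaf1a and Chaf1b at days 4 and 7 held without any single library, and that of Uhrf1 at day 2 was lost without TAC replicate 3 or sham replicate 2.

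All 3 G1/S regulators were higher at day 7, and E2f1 at days 2 and 4 as well. Ccne2, a cyclin E that drives Cdk2 at the start of S phase, was at 2.72 to 4.51 CPM in sham hearts (median 3.22). In the TAC groups Ccne2 stood at 2.65, 4.80 and 4.49 CPM at day 2 and 3.12, 4.66 and 6.58 CPM at day 4. It stood at 5.55, 6.33 and 9.62 CPM at day 7 and at 5.08, 3.93 and 2.58 CPM at day 21. The groups were apart at day 7 and overlapped at days 2, 4 and 21. The log2 fold change was 0.61 ± 0.29 at day 4 (adjusted p = 0.128) and 1.12 ± 0.28 at day 7 (adjusted p = 0.00914). Ccne1, the other cyclin E, had 1.34 ± 0.46 at day 7 (adjusted p = 0.0396). The day 7 calls of both cyclins were lost without TAC replicate 3.

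E2f1, the activating transcription factor of the G1/S boundary, was at 0.650 to 1.61 CPM in the sham libraries (median 0.966). At day 2 the TAC libraries held 2.09, 2.08 and 3.59 CPM of E2f1 and at day 4 2.85, 2.09 and 5.45 CPM. They held 4.15, 5.93 and 5.70 CPM at day 7 and 2.67, 1.57 and 2.36 CPM at day 21. At days 2, 4 and 7 every TAC library lay above every one of the 12 sham libraries, and at day 21 replicate 2 lay among the sham libraries of that day. Its log2 fold change was 1.50 ± 0.35, 2.16 ± 0.36 and 2.41 ± 0.35 at days 2, 4 and 7 (adjusted p = 0.0192, 0.000582 and 0.00018), and 0.68 ± 0.35 at day 21 (adjusted p = 0.324). Averaged over the days it was 1.69 ± 0.18, with the smallest adjusted p of the 40 genes (8.53e-07). The calls of days 4 and 7 held without any single library, and that of day 2 was lost without TAC replicate 3 or any one sham library of the day.

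**Figure D3:**
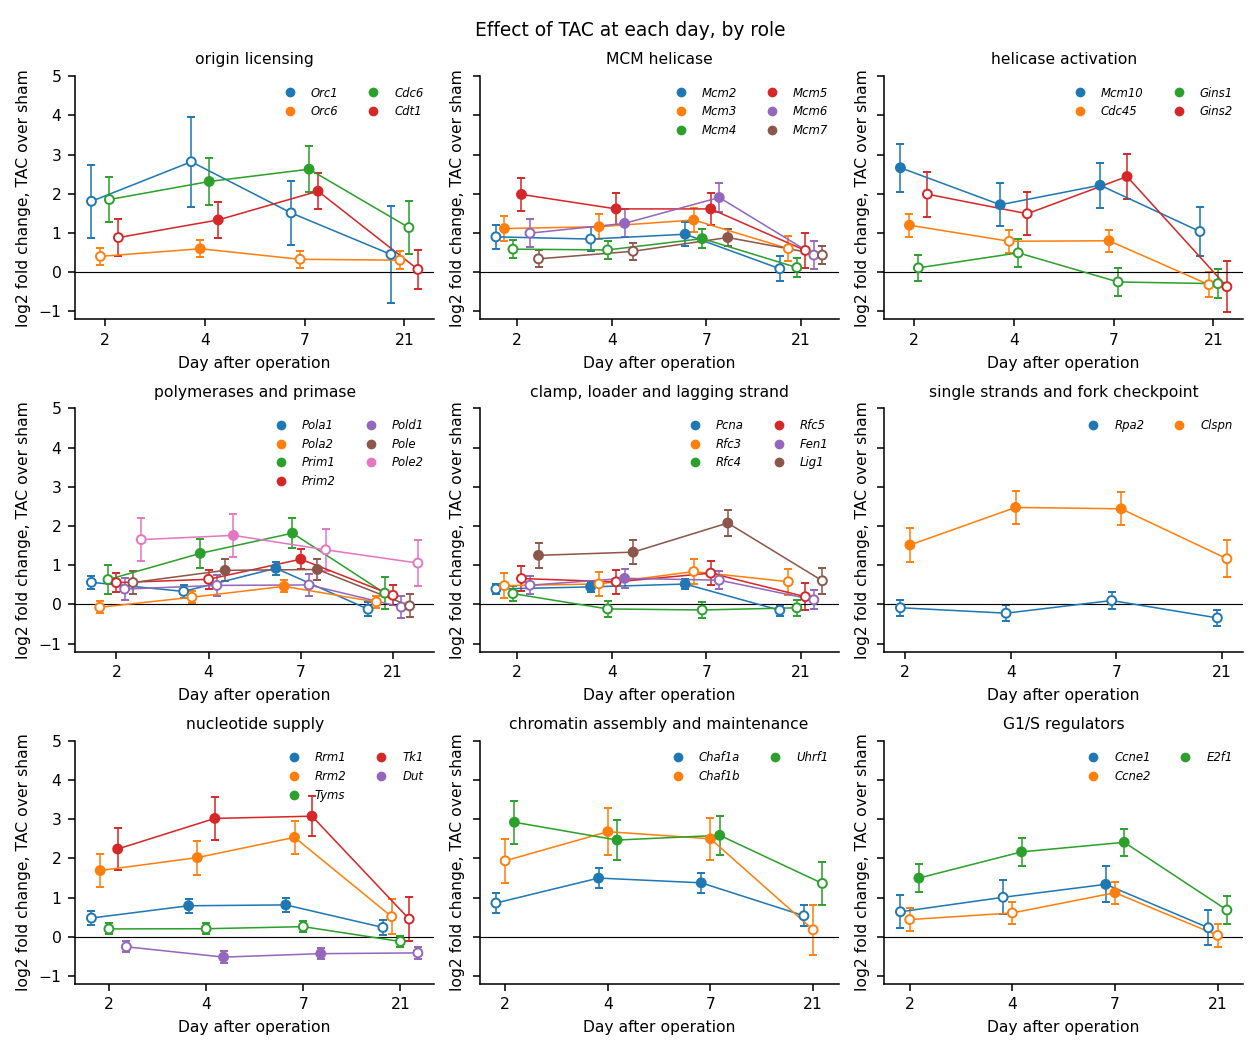
Log2 fold change of TAC over sham ± SE for each of the 40 genes at days 2, 4, 7 and 21, in 9 panels by role, with filled points for an adjusted p under 0.05 in edgeR's quasi-likelihood test. Filled points are at days 2, 4 and 7, no point is filled at day 21, and Dut is the one gene with filled points below the line at 0.

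At day 21 no member passed the test in edgeR, DESeq2 or limma voom. At an unadjusted p under 0.05, 2 members were higher, Uhrf1 and Clspn, and 1 was lower, Dut, while 9.25% and 8.12% of all genes were. The 11 genes whose TAC libraries lay above all sham libraries of day 21 were Cdc6, Mcm3, Mcm5, Mcm7, Pole2, Rfc3, Lig1, Clspn, Rrm1, Chaf1a and Uhrf1. E2f1 was at 2.67, 1.57 and 2.36 CPM in TAC and 1.02, 1.50 and 1.61 CPM in sham, and Tk1 at 1.51, 0.960 and 1.10 CPM against 0.874, 1.41 and 0.382 CPM. The TAC values of both genes were below those of day 7 in every library.

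Whether the effect of TAC itself differed between days was tested as a difference of differences. In edgeR no member passed over the 4 days together, where 0.369% of all genes did. None passed for day 4 minus day 2 (0% of all genes), day 7 minus day 4 (0.0507%) or day 21 minus day 7 (0.0651%). At an unadjusted p under 0.05, 9 members passed over the days (13.0% of all genes), 0 for day 4 minus day 2, and 1, Pola1, was higher for day 7 minus day 4 (3.85%). For day 21 minus day 7, 18 members had a negative difference with an unadjusted p under 0.05 (6.20% of all genes), the median difference was -0.92, and 38 of the 40 values were negative. Pola1 had -1.04 ± 0.24 (adjusted p = 0.114), E2f1 -1.73 ± 0.50 (adjusted p = 0.209) and Tk1 -2.62 ± 0.78 (adjusted p = 0.215). DESeq2 called 1 member for day 21 minus day 7, limma voom 0, and both called 0 for the other differences. In edgeR, calls at day 7 beside none at day 21 thus do not show, for any single gene, that the effect differed between these days.

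In sham hearts the 40 genes did not pass a test over the 4 days. None passed in edgeR (0.680% of all genes did), none at an unadjusted p under 0.05, and none in DESeq2 or limma voom. Their summed CPM lay between 223 and 264 over the 12 sham libraries.

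The size of the effect went with the level in sham hearts. Genes were ranked by the authors' RPKM (reads per kilobase and 1000000 reads), which allows for gene length. The 10 lowest had 0.0867 to 0.668 RPKM and the 10 highest 3.40 to 32.6 RPKM in sham hearts. The RPKM rest on another counting than the fold changes, and the order by CPM can differ. Orc1 had a sham mean of 0.209 CPM and 0.537 RPKM, Cdc6 one of 0.405 CPM and 0.0867 RPKM. The median log2 fold change at days 2, 4 and 7 was 1.73, 2.24 and 2.31 for the 10 lowest, among them Cdc6, Mcm10, Clspn, Chaf1b, E2f1 and Uhrf1. For the 10 highest, which include Pcna, Dut, Tyms, Rfc4, Mcm7, Rrm1 and Mcm6, it was 0.31, 0.33 and 0.49. The 20 genes between had 0.76, 0.86 and 1.06. Of the 10 highest, 6 were higher at day 7 and Dut was lower, and of the 10 lowest 8 were higher. The same sham libraries enter the level and the fold change, so this is a description with no test. The filter on low counts looks at all libraries. Cdc6 and Orc1, both among the 10 lowest, were at no more than 0.645 and 0.605 CPM in any sham library. They passed that filter only through their TAC libraries. So did Mcm10, also among the 10 lowest, and Gins2, whose sham medians were 0.545 and 0.593 CPM. The medians above include these genes.

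**Figure D4:**
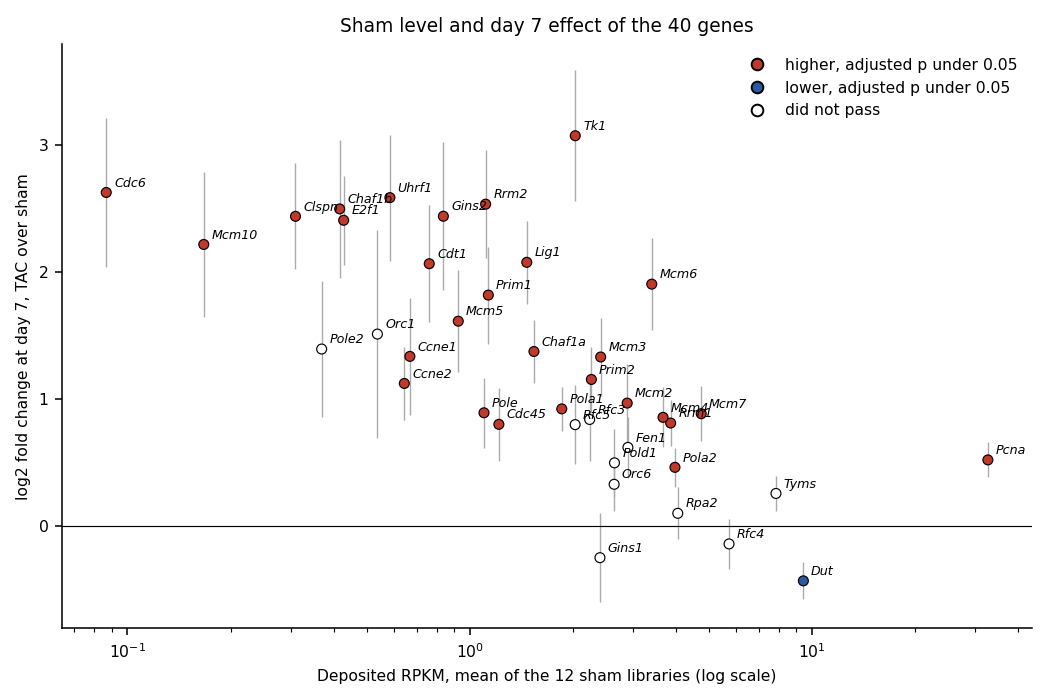
Log2 fold change at day 7 (± SE) of each of the 40 genes against its mean RPKM in the 12 sham libraries, on a log axis, with red for higher, blue for lower and white for genes that did not pass an adjusted p of 0.05. The values above 2 belong to genes at or below the 2.03 RPKM of Tk1, while Pcna, at 32.6 RPKM, stood at 0.52 and Dut below 0.

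Other genes of the pathway were counted as lists. Of 32 other replication factors, 4 were higher and 2 lower at day 4, and 8 higher and 1 lower at day 7, with a median log2 fold change of 0.12 and 0.21. Of all tested genes 14.4% were higher and 10.1% lower at day 4, which these counts do not exceed, and 13.1% and 10.0% at day 7. Cdc7 and its partner Dbf4, the kinase that fires origins, had 1.60 ± 0.37 and 1.30 ± 0.47 at day 4 (adjusted p = 0.00459 and 0.0477). Wdhd1, which links the helicase to polymerase alpha, had 1.67 ± 0.37 at day 7 (adjusted p = 0.00425). Lower at day 4 were Rpa1, the large subunit of replication protein A, at -0.31 ± 0.10 (adjusted p = 0.0255), and Orc5, at -0.32 ± 0.11 (adjusted p = 0.0344). Rfc1, the large subunit of the clamp loader, was lower at day 7, at -0.34 ± 0.10 (adjusted p = 0.0196). Timeless, a fork protection factor, was the one gene of these lists past the test at day 21, at 0.78 ± 0.16 (adjusted p = 0.0244).

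Of 15 other genes of nucleotide and histone supply, 7 were higher and 1 lower at day 4 and again at day 7, with medians of 0.50 and 0.39. Of all tested genes 14.4% were higher at day 4 and 13.1% at day 7. Lower were 10.1% and 10.0%, which the count of lower genes in this list does not exceed. Dck, a salvage kinase, had 1.27 ± 0.25 at day 7 (adjusted p = 0.0017), Asf1b, a histone chaperone, 1.78 ± 0.39 (adjusted p = 0.00375), and Dnmt1, the maintenance methyltransferase, 0.80 ± 0.17 (adjusted p = 0.00261). Rrm2b, the small subunit of ribonucleotide reductase used outside S phase, was lower, at -0.44 ± 0.12 and -0.54 ± 0.12 at days 4 and 7 (adjusted p = 0.0105 and 0.00332). Rrm2, the small subunit used in S phase and a member, was higher at both days.

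The list of G1/S control held 26 genes, with medians of 0.35 and 0.44 at days 4 and 7. At day 4, 11 were higher and 5 lower (14.4% and 10.1% of all tested genes). At day 7, 12 were higher and 3 lower (13.1% and 10.0% of all tested genes), so that the lower count is near the share of all genes. Ccna2, the S phase cyclin, had 3.38 ± 0.46 and 3.32 ± 0.45 (adjusted p = 0.00017 and 0.000138). The repressors E2f7 and E2f8 had 1.90 ± 0.32 and 1.72 ± 0.30 at day 4 (adjusted p = 0.000607 and 0.000658), and Rbl1, a pocket protein that binds E2F, 1.61 ± 0.25 at day 7 (adjusted p = 0.000273). Of the cyclin-dependent kinase inhibitors, Cdkn1a was higher at day 7 (1.55 ± 0.36, adjusted p = 0.00576) and Cdkn1c lower (-1.15 ± 0.22, adjusted p = 0.00161). The 20 genes of mitosis had medians of 2.08, 3.11 and 2.95 at days 2, 4 and 7. Of these, 15, 19 and 19 were higher (3.73%, 14.4% and 13.1% of all tested genes). No test compared the mitosis genes with the members.

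In the TAC groups of days 2 and 4 most members were highest in the same library. TAC replicate 3 was the highest of its group in 37 of the 40 genes at day 2 and in 36 at day 4, replicate 3 in 26 and replicate 2 in 14 at day 7, and replicate 1 in 27 at day 21. In the sham groups the library that was highest most often was so in 23, 21, 17 and 16 genes at days 2, 4, 7 and 21. The median log2 value of the members over sham was 0.05, 0.53 and 1.04 in TAC replicates 1, 2 and 3 at day 2 and 0.53, 0.49 and 1.31 at day 4. At day 7 it was 0.73, 0.99 and 1.15, and at day 21 0.35, 0.13 and 0.14. TAC replicate 1 of day 2 was thus near sham, with 23 of the 40 genes above the sham mean, against 37 in each of the other two libraries.

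Markers of other cells differed between the groups as well. The summed CPM of the 40 members was 246, 322 and 460.4 at day 2, 314, 327 and 544 at day 4, 399, 500.3 and 531 at day 7 and 273, 249 and 237 at day 21 in the TAC libraries. The 14 measured macrophage markers summed to 262 to 409 CPM in sham hearts and to 386, 549.6 and 692 in TAC at day 2, 947, 711 and 818 at day 4 and 641, 397 and 534 at day 7. At day 21 they summed to 404, 302 and 417 in TAC, above the 269.9, 262 and 276 of the sham libraries of that day. The 12 fibroblast markers summed to 1373 to 1917 CPM in sham hearts and to 1725, 3121 and 2864 in TAC at day 2. They summed to 8359.6, 4318 and 8759.9 at day 4 and to 9128, 1977 and 4330.2 at day 7. At day 21 the TAC sums of 3135, 1388 and 4465 overlapped with sham. At day 2 the macrophage sums had the same order over the TAC replicates as the members' sums, and at day 4 replicate 3 was highest in members and fibroblast markers and replicate 1 in macrophage markers. At day 7 replicate 1 had the highest sums of both marker lists and the lowest of the members, and at day 21 replicate 3 did. The 10 endothelial markers summed to 1275, 1446 and 1537 CPM in TAC at day 7, the order of the members. All 3 sums lay above the 1160 to 1210 CPM of sham. At day 2 the endothelial order was the reverse, with 1085, 1035 and 1011 CPM. At day 4 the endothelial sums were 1063, 1205 and 1178 CPM, in another order than the members. These lay below the 1222 to 1327 CPM of the sham libraries of that day. Neutrophil markers summed to 6.27, 14.4 and 25.15 CPM in TAC at day 2, the members' order. At day 7 they had the reverse order, with 8.67, 6.25 and 6.08 CPM.

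Of the 14 macrophage markers, 6, 13, 12 and 0 were higher at days 2, 4, 7 and 21, and of the 12 fibroblast markers 0, 9, 10 and 0. Among all tested genes 3.73%, 14.4%, 13.1% and 0.622% were higher at these days. The 8 heart muscle markers sum to 85697 CPM or more in every sham library. They identify heart muscle and were not used to tell ventricle from atrium. Of these markers 4 were lower at days 4 and 7 each (10.1% and 10.0% of all tested genes). Their TAC sums were 69591, 77276 and 55733 CPM at day 4 and 47338, 81156 and 64728 CPM at day 7. The 10 endothelial markers had 3 lower genes at days 2 and 4 each (0.854% and 10.1% of all tested genes). At day 7 they had 3 higher and 1 lower (13.1% and 10.0% of all tested genes). Of the 8 lymphocyte markers 5, Cd3e, Cd3d, Cd8a, Ms4a1 and Nkg7, were too low to be tested. The part of any of these cells in the members' values was not tested.

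**Figure D5:**
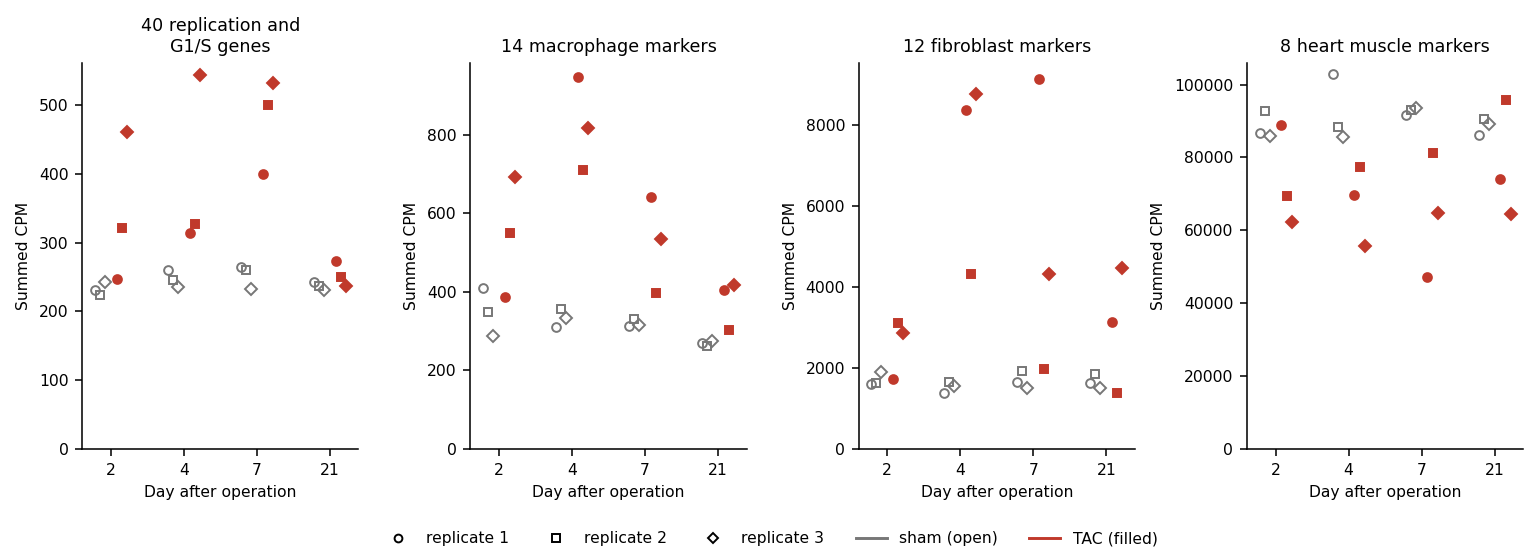
Summed CPM of the 40 members, 14 macrophage markers, 12 fibroblast markers and 8 heart muscle markers in each library by day, sham open and TAC filled, with marker shapes for the replicates. The members' sum lies above sham in all TAC libraries of days 4 and 7. At day 2 the macrophage sum has the order of the members' sum over the TAC libraries, and at day 7 the library with the highest fibroblast sum is the one with the lowest members' sum.

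Exons of 9 members overlap a counted gene on the other strand, Orc6 with Vps35, Mcm7 with Ap4m1 and Cops6, Gins2 with Gse1, Rfc4 with Eif4a2, Rfc5 with Wsb2, Fen1 with Tmem258, Tk1 with Afmid, Chaf1a with Ubxn6 and Ccne2 with Ints8. The sources used here do not say if the counting used strand, so that reads of such pairs may have been counted for either gene. On the same strand, exons of Mcm7 also overlap the counted genes Mir25 and Mir93, which a strand setting would not separate.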

How the data were processed

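Per the labels' protocols, left ventricles were frozen in liquid nitrogen, and total RNA was made into libraries with a NuGEN Ovation kit and sequenced on an Illumina NextSeq500. Per the submitters' processing notes, TopHat and DESeq were used with hg19, a human build that cannot have given mouse symbols. Mouse build, annotation, counting and strand setting: not given in the sources used here. Tests use raw read counts per gene symbol, as deposited by the authors, who also deposited RPKM values. The RPKM rest on another counting: the 3 member values with 0 counts all have an RPKM above 0.

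In R 4.3.3, edgeR 4.0.16 kept genes by filterByExpr, scaled by TMM and fitted 1 quasi-likelihood model of 8 group means over all 24 libraries (16 residual degrees of freedom). Tests are two-sided, with Benjamini-Hochberg adjustment over all 13816 genes of a comparison. The SE is the log2 fold change over the square root of F. Precision was set by the spread between replicates (chi-square per degree of freedom 3.52 to 58.9). Alternatives used limma 3.58.1 and DESeq2 1.42.0, other scalings and filters, RPKM, and each library left out. The script was tested on simulated data. All 40 members are accounted for. Values per library are given for the 2 members of each role with the highest average log2 CPM, for E2f1 and for members that go against their role. The plan was to name other pathway genes by smallest p, up to 4 a list. More than these are named from the other replication factors and from G1/S control. Timeless was named after its value was seen. Members and lists were chosen with earlier results of these data known. Overlaps with other genes come from GENCODE vM21.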

Additional observations from a re-analysis of the deposited data

How the results depend on the processing

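The count of members higher at day 2, 10 in the main analysis, was 0 with limma voom, with only the libraries of the day and with RPKM at a pseudocount of 1, 1 with RPKM without filter, 4 with RPKM at a pseudocount of 0.1, and 0 to 23 with 1 library left out. After seeing the data, the 4 libraries with over 30 CPM of Myl7 were left out (0 members higher at day 2, and 0 lower at day 7) or Myl7 was added as a covariate (17 higher at day 2). At day 4, 8 to 26 members were higher with 1 library left out and at day 7 20 to 32. The 1 lower member, Dut, became 0 at day 4 with RPKM without filter, and at day 7 with only the libraries of the day and with RPKM at either pseudocount or without filter; with 1 library left out the count was 0 to 1 at both days. For day 21 minus day 7, DESeq2 gave 1 member, and leaving out 1 library 0 to 1. RLE scaling, no filter, a mean CPM of at least 1 and DESeq2 gave 11 to 15 members at day 2, 21 to 24 at day 4 and 27 to 29 at day 7, and the average over days had 30 to 35 under all alternatives. The cause of these shifts was not tested.

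The sign of some values that did not pass the test turned. Orc1 at day 2, 1.808 in the main analysis, was -0.12 with RPKM at a pseudocount of 0.1 or without filter and -0.045 at a pseudocount of 1. With 1 library left out, Gins1 ranged over -0.079 to 0.298 at day 2 and -0.414 to 0.015 at day 7, Pola2 over -0.118 to 0.008, Rfc3 (0.480 with all libraries) over -0.017 to 0.730 and Ccne1 (0.637 with all libraries) over -0.025 to 0.932 at day 2, Rfc4 over -0.401 to 0.067 and Rpa2 over -0.407 to 0.027 at day 4, and Rpa2 over -0.007 to 0.180 at day 7.

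A fit with the replicate number as a block gave 12, 20, 28 and 33 members higher at days 2, 4, 7 and on average. In 1 of 12 same-day pairs the correlation of deviations was over 0.1 (range -0.15 to 0.14), and 10 of 24 libraries correlated best with their own number, so that the numbers were not read as a pairing.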
